A study of Homo sapiens with 39 samples.

Results

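The endoplasmic reticulum (ER) chaperones and unfolded protein response genes described here are HSPA5, HSP90B1, XBP1, DNAJB9, SDF2L1, HERPUD1, PDIA4, CALR, SEL1L and SSR4, found by gene symbol in the annotation of the array's probes. Of these 10 genes, 9 had a probe, 1 each, out of 16591 genes with a probe on the array, and HERPUD1 was not analysed here. Their mRNA was measured in total RNA on Illumina BeadChip arrays in U266, a human multiple myeloma line that the labels call tolerant, and in IM-9, a human B-lymphoblastoid line that carries Epstein-Barr virus and that the labels call sensitive. The agent was ch128.1Av, an antibody fused to avidin that binds transferrin receptor 1, the receptor through which cells take up iron. Each line was kept with ch128.1Av at 10 nM for 1, 3, 9 or 24 h, or for the same hours in buffer (Control), and untreated cells taken at 0 h are also called Control. The 18 groups held 2 arrays each, apart from 3 arrays in U266 with ch128.1Av at 1 h and at 9 h and in IM-9 with ch128.1Av at 3 h. Each cell type is a single established line, so a difference between the lines cannot be told apart from a difference between myeloma and lymphoblastoid cells. Nothing in the labels tells whether the replicates came from separate cultures, so p-values measure the spread between arrays, which may be technical.

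The ER is where secreted and membrane proteins enter the secretory pathway, fold and form disulfide bonds, and proteins that fail to fold are sent back to the cytosol for degradation. When unfolded protein builds up, the membrane sensors IRE1 (gene ERN1), PERK (gene EIF2AK3) and ATF6 start the unfolded protein response, in which IRE1 splices XBP1 mRNA so that it encodes an active transcription factor, and XBP1 and ATF6 raise genes for chaperones and for degradation. Plasma cells need XBP1 for antibody secretion, and myeloma is a tumour of plasma cells. Whether the XBP1 probe separates spliced from unspliced mRNA was not checked, and splicing was not tested.

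XBP1 and ATF6 act through short elements in the promoters of ER genes, and the promoter windows that hold such an element are shown because they mark which members carry it and which do not. All 9 measured genes matched RefSeq promoter windows of 300 bases on GRCh38.p14, each from 250 bases before to 50 bases after a gene start, 12 windows in all since XBP1, PDIA4 and SSR4 have 2 each. The ER stress response element, ERSE (CCAAT and CCACG with any 9 bases between them, both strands), was in 27 of 35116 promoters (0.0769%) and in 1 window of each of 4 members. These are HSPA5 (chr9:125241294-125241593, minus strand), HSP90B1 (chr12:103930160-103930459, plus strand, with 2 copies), the upstream start of XBP1 (chr22:28800520-28800819, minus strand) and CALR (chr19:12938359-12938658, plus strand). The related ERSE-II (ATTGG and CCACG with any 1 base between them, both strands) was in 19 promoters (0.0541%), SDF2L1 among them (chr22:21642052-21642351, plus strand). A core of the XBP1 element (TGACGTG, both strands) was in 692 promoters (1.97%), and among the members in the downstream window of SSR4 (chrX:153794418-153794717, plus strand). None of the 3 was found in the windows of DNAJB9, PDIA4 or SEL1L, which says only that these letters are not in those windows. ERSE was first described in genes such as these, so its presence here is a description and not independent evidence. The capitals mark the fixed letters of each element, which may stand on either strand.
HSPA5 promoter: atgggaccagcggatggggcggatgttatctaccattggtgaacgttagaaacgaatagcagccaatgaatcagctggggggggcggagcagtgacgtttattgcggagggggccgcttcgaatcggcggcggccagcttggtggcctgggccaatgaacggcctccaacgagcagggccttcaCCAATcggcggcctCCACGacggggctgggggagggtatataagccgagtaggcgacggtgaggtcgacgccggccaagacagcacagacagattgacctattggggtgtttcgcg
HSP90B1 promoter: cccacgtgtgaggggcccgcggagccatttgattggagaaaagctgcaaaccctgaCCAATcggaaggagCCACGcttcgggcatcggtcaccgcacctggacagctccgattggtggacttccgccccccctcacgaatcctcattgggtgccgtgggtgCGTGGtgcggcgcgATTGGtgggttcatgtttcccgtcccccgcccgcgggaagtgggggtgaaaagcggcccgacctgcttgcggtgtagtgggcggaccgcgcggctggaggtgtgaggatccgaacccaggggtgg
XBP1 upstream promoter: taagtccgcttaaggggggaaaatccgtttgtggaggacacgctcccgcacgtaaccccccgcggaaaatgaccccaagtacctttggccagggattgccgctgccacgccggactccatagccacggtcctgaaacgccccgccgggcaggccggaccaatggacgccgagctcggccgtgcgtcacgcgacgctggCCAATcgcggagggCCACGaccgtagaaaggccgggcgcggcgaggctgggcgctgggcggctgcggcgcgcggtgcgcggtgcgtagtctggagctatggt
CALR promoter: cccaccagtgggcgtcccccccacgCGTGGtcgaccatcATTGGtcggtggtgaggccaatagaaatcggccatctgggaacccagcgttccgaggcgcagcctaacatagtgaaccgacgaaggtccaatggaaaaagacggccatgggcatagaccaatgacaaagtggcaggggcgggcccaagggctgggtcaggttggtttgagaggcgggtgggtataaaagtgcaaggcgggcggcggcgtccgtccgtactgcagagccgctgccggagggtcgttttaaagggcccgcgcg
SDF2L1 promoter: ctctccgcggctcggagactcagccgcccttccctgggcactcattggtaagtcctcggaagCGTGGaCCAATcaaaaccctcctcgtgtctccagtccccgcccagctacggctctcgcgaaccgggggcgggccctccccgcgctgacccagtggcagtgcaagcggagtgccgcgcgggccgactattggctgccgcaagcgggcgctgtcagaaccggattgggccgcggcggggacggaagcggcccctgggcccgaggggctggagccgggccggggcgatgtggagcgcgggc
SSR4 downstream promoter: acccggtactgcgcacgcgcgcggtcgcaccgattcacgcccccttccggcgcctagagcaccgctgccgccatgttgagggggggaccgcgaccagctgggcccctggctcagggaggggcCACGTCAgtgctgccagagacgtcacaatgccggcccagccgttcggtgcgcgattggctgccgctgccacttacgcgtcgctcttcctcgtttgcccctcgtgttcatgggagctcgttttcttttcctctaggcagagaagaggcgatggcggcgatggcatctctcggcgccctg

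Levels are log2 intensities after background correction and quantile normalization, and each gene is compared with itself and not with another gene, since probes differ in brightness. Differences are given on this log2 scale with a standard error (SE) and limma's p adjusted by Benjamini-Hochberg over 11538 genes, and a gene is called at an adjusted p under 0.05. All 9 members were detected on 39 of 39 arrays. Per array 8967 to 10067 probes were detected, and the lowest correlation between replicate arrays, across probes, was 0.994. Array brightness, the raw intensity at the 75th percentile divided by that at the 5th, ran from 3.95 to 11.7, and values of it that move with a result are given beside that result. As a check of the labels, SDC1, the plasma cell surface proteoglycan, was at 13.08 to 13.37 in U266 and at 8.95 to 9.81 in IM-9 (detected on 13 of 20 and 3 of 19 arrays), and TNFRSF17, the plasma cell receptor BCMA, was 2.21 higher in U266 (adjusted p = 1.06e-27). Detection of SDC1 did not follow its level, since genes at far lower levels passed on every array of a line, and the reason was not tested. EBI3 and FCER2, genes high in B cells carrying Epstein-Barr virus, were at 13.51 to 14.08 and 13.31 to 13.92 in IM-9 and were detected on 0 of 20 U266 arrays. The B cell markers MS4A1 and PAX5 were near background in IM-9 too, detected on 1 and 0 of 19 arrays, and TNFRSF13B, listed as a plasma cell marker, stood at -4.91 (log2 difference, U266 minus IM-9). Over the Control hours 5 of 10 plasma cell markers tested were called higher and 4 lower in U266, and 1 of 8 B lymphoblast markers higher and 7 lower. CD38 stood at 1.46 and among the B lymphoblast markers EBI3 at -6.06, FCER2 at -5.75, CD83 at -4.07 and CD79A at -3.50. Of 14 markers of T, NK, myeloid, erythroid, epithelial and stromal cells with a probe, 8 were detected on 0 of 39 arrays. HBB and PECAM1 were detected on 20 of 20 U266 and 0 of 19 IM-9 arrays, NKG7 on 0 of 20 U266 and 19 of 19 IM-9 arrays, and CSF1R on 0 of 20 and 15 of 19. All 4 lay near background: HBB at 8.15 to 8.40 and PECAM1 at 8.02 to 8.17 in U266, and NKG7 at 7.85 to 8.08 and CSF1R at 7.82 to 7.99 in IM-9. Their line differences were 0.52, 0.32, -0.29 and -0.16.

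In Control cells U266 had clearly more mRNA of 5 members than IM-9: the co-chaperone gene DNAJB9, the degradation gene SEL1L, the transcription factor gene XBP1, the master chaperone gene HSPA5 and the translocon gene SSR4. The other 4, the chaperone and foldase genes CALR, SDF2L1, HSP90B1 and PDIA4, were lower in U266 by smaller amounts. So 5 of 9 were called higher, where 42.1% of all genes tested were called higher, and 4 were called lower, where 40.8% were. The lines differed in 82.9% of all genes tested, so being called is no mark of this gene set. The median difference of the members was 1.07, beside 0.00 for all genes. With 5 members higher and 4 lower, that median is the value of SSR4, so it is no shared shift of the set. In RNA from whole cultures, fewer cells with a transcript and less of it per cell cannot be told apart.

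DNAJB9 encodes a partner of the chaperone BiP that carries misfolded proteins to degradation. Over the 10 Control arrays of each line, its lowest, median and highest levels were 11.65, 11.95 and 12.09 in U266, against 8.66, 8.96 and 9.38 in IM-9. Every U266 array was above every IM-9 array. The difference was 2.89 (SE 0.0433), 7.41-fold, with an adjusted p of 1.63e-26 by limma.

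SEL1L encodes the adaptor that holds the ubiquitin ligase of ER-associated degradation together. It stood at 9.34, 9.89 and 10.11 (lowest, median, highest) in U266 Control arrays, against 7.85, 7.96 and 8.02 in IM-9. The lines did not overlap, and the IM-9 levels lay just above the lowest level that passed detection on IM-9 arrays, which was 7.77 to 7.79. The difference was 1.91 (SE 0.0562, adjusted p = 2.73e-20), 3.76-fold, and close to background a fold of normalized intensity understates the change.

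XBP1 encodes the transcription factor that drives ER expansion in plasma cells. Its levels were 13.34, 13.49 and 13.66 in U266 Control arrays, against 11.81, 12.08 and 12.32 in IM-9. No array of one line reached the range of the other, and the difference was 1.43 (SE 0.0290, adjusted p = 9.96e-24), 2.69-fold.

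HSPA5 encodes BiP, the ER form of the heat shock chaperones and the protein that keeps the stress sensors silent. It was at 11.40, 11.73 and 11.82 in U266 Control arrays, against 10.11, 10.30 and 10.55 in IM-9. The ranges were apart, and the difference was 1.41 (SE 0.0356, adjusted p = 1.00e-21), 2.67-fold.

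SSR4 encodes a subunit of the translocon-associated protein complex, which helps nascent chains enter the ER. It was at 14.76, 14.91 and 15.07 in U266 Control arrays, against 13.75, 13.82 and 14.10 in IM-9. These ranges too were apart, with a difference of 1.07 (SE 0.0285, adjusted p = 3.04e-21), 2.10-fold. The 5 genes higher in U266 had no overlap between the lines, as had 50.9% of all genes tested.

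CALR encodes calreticulin, the calcium-binding chaperone that holds glycoproteins during folding. Its levels were 11.54, 12.05 and 12.26 in U266 Control arrays, against 12.06, 12.53 and 12.68 in IM-9. Of the 10 U266 arrays, 5 were below every IM-9 array and 5 lay within the IM-9 range, and the difference was -0.48 (SE 0.0647, adjusted p = 2.93e-07).

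SDF2L1 encodes a small stress-induced ER protein that works with BiP and its partners. It was at 13.24, 13.36 and 13.64 in U266 Control arrays, against 13.45, 13.79 and 13.98 in IM-9, with some overlap. The difference was -0.40 (SE 0.0371, adjusted p = 4.84e-10).

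HSP90B1, the ER member of the HSP90 chaperones, and PDIA4, a protein disulfide isomerase, were the members closest between the lines. HSP90B1 was at 13.77, 13.88 and 14.08 in U266 Control arrays, against 13.74, 14.09 and 14.25 in IM-9, a difference of -0.14 (SE 0.0289, adjusted p = 8.70e-05). PDIA4 was at 11.94, 12.18 and 12.44 in U266, against 11.99, 12.35 and 12.48 in IM-9, a difference of -0.14 (SE 0.0621, adjusted p = 0.0483). For both genes the arrays of the lines overlapped over most of their range. The PDIA4 call was lost in 4 of 10 other processing settings and in 15 of 20 omissions of 1 array, with adjusted p up to 0.578 across the settings. The other 8 calls held in every one of those settings and omissions.

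**Figure D1:**
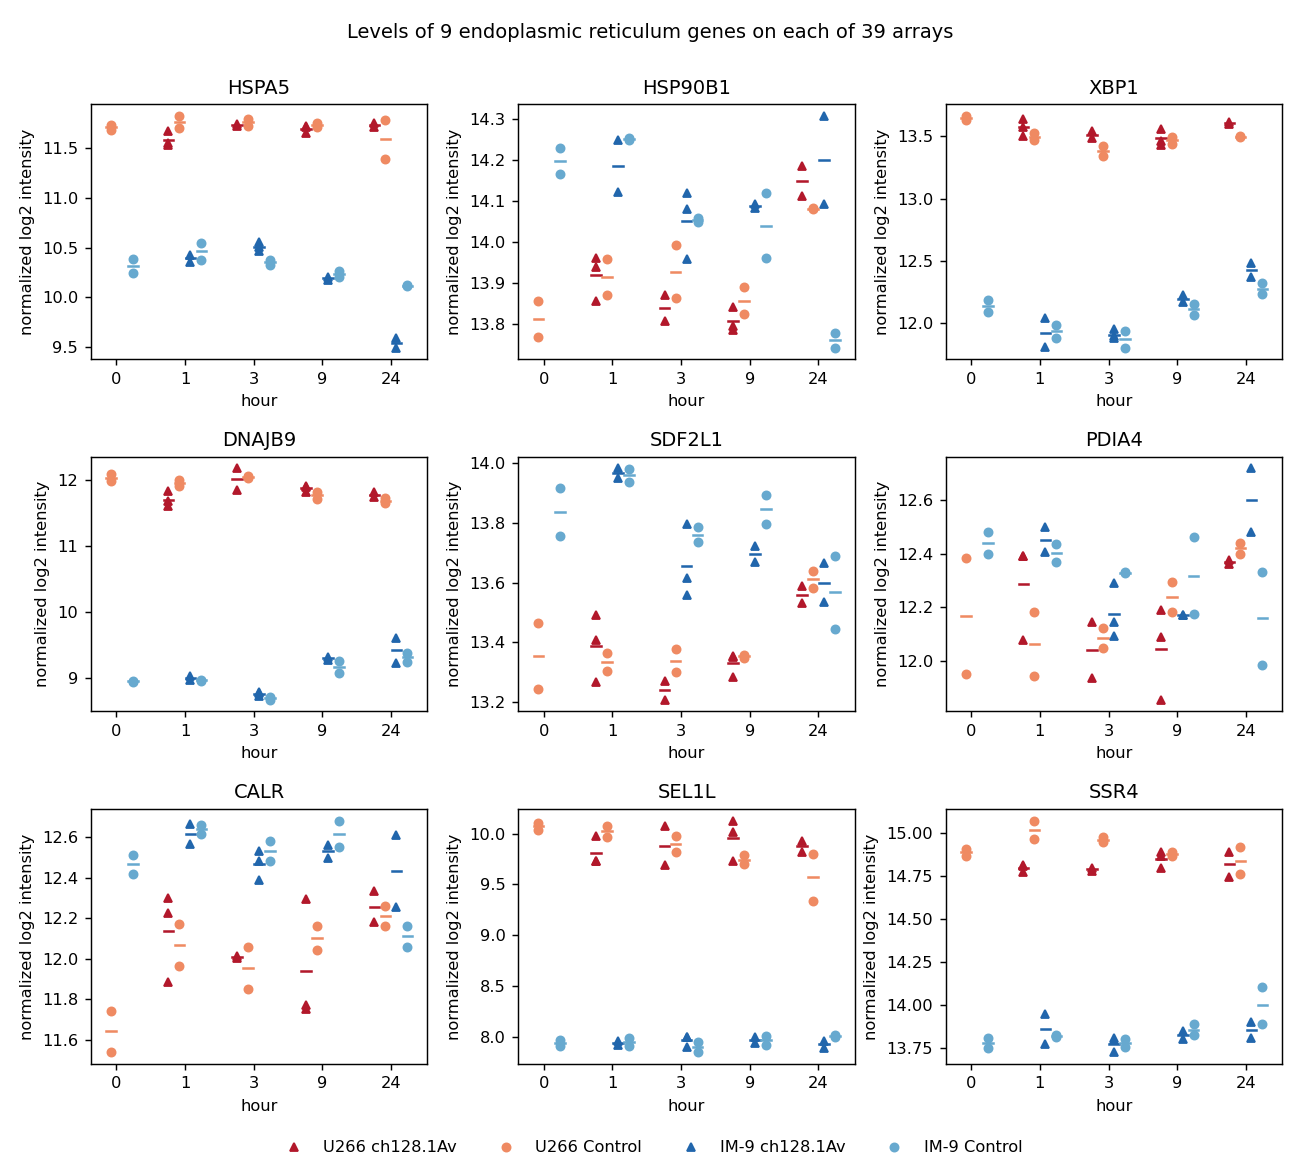
Normalized log2 intensity (vertical axes, each with its own range) of the 9 measured genes on each of 39 arrays by hour (horizontal axes, evenly spaced, not to scale). Red symbols are U266 and blue symbols IM-9, triangles are ch128.1Av and circles Control, and short bars are group means. HSPA5, XBP1, DNAJB9, SEL1L and SSR4 lie apart in the lines, and HSPA5 in IM-9 is lowest with ch128.1Av at 24 h, at 9.59 and 9.50.

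Ordered over all 18 groups, the 9 U266 groups took the top 9 places for HSPA5, XBP1, DNAJB9, SEL1L and SSR4, whatever the treatment. For HSPA5 the order ran from 11.77 in U266 Control cells at 1 h down to 9.54 in IM-9 with ch128.1Av at 24 h, a range of 2.22. Of the 17 pairs of neighbours in that order, 13 overlapped in their array values. For XBP1 the order ran from 13.65 in U266 Control cells at 0 h to 11.87 in IM-9 Control cells at 3 h, with 11 of 17 neighbour pairs overlapping. PDIA4 and CALR had 16 of 17 neighbour pairs overlapping, and only 3 and 1 of their top 9 groups were U266.

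The differences between the lines were not the same at each hour, as the plot of Control differences by hour shows. U266 minus IM-9 for DNAJB9 was 3.10, 3.00, 3.37, 2.61 and 2.38 at 0, 1, 3, 9 and 24 h. For SEL1L it was 2.14, 2.07, 2.00, 1.78 and 1.56, and for XBP1 1.51, 1.56, 1.51, 1.35 and 1.22. HSPA5 moved least of the 5, at 1.39, 1.30, 1.41, 1.50 and 1.47. SSR4 lay at 0.84 to 1.20, and all 5 of these genes were called higher in U266 at each hour. CALR was lower in U266 at 0, 1, 3 and 9 h, at -0.83, -0.57, -0.58 and -0.52, and stood at 0.10 at 24 h (adjusted p = 0.552). SDF2L1 was lower at 0, 1, 3 and 9 h too, at -0.48, -0.62, -0.42 and -0.49. At 24 h its means were 13.61 in U266 and 13.57 in IM-9, and it was not called. PDIA4 stood at -0.27, -0.34 and -0.08 at 0, 1 and 9 h, called at 1 h alone, and at 0.26 at 24 h (adjusted p = 0.1). At 3 h its means were 12.09 in U266 and 12.33 in IM-9. All 9 members had a positive difference at 24 h. HSP90B1 stood at -0.38, -0.34, -0.13 and -0.18 and then at 0.32 at 24 h, where it was called higher in U266 (SE 0.0647, adjusted p = 1.16e-04). Control brightness at 24 h was 4.23 and 5.99 in U266, against 9.24 and 9.29 in IM-9. With brightness as a covariate the HSP90B1 difference at 24 h was 0.26 (adjusted p = 0.00336), and with equal medians it was 0.03 and not called (adjusted p = 0.892). At 0, 1, 3, 9 and 24 h 8, 9, 7, 8 and 6 members were called, where 67.3%, 68.4%, 68.5%, 66.4% and 68.7% of all genes were. At 24 h all 6 were higher and 0 lower, where 35.1% of all genes were higher and 33.5% lower.

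**Figure D2:**
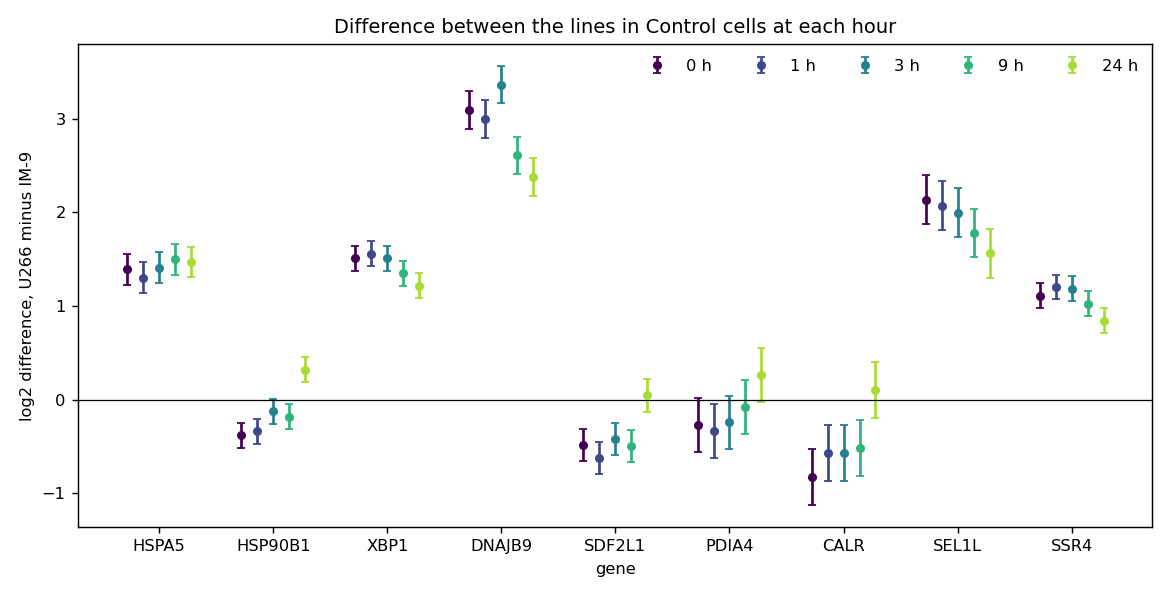
Log2 difference U266 minus IM-9 (vertical axis) in Control cells for each gene (horizontal axis) at 0, 1, 3, 9 and 24 h, with 95% confidence intervals from the limma fit on 2 arrays a group. DNAJB9 has the largest differences of the 9, from 2.38 to 3.37, and HSP90B1 crosses 0, from -0.38 at 0 h to 0.32 at 24 h.

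Shifts with hour were tested in Control cells at 24 h against 0 h. In U266 CALR rose by 0.57 (SE 0.145, adjusted p = 0.0135), HSP90B1 by 0.27 (adjusted p = 0.00997) and SDF2L1 by 0.26 (adjusted p = 0.0432), while SEL1L fell by 0.50 (adjusted p = 0.0122) and DNAJB9 by 0.35 (adjusted p = 0.0206). These were 5 of 9 members, where 12.6% of all genes were called. In IM-9 HSP90B1 fell by 0.44 (SE 0.0647, adjusted p = 5.30e-05) and SDF2L1 by 0.27 (adjusted p = 0.0279), while DNAJB9 rose by 0.36 (adjusted p = 0.0107) and SSR4 by 0.22 (adjusted p = 0.0187), 4 of 9 where 16.2% of all genes were called. The change itself differed between the lines, U266 minus IM-9, for 7 of 9 members, where 22.7% of all genes were called, a comparison added after the data were seen. Array brightness moved with these changes: in U266 it was 4.23 and 5.99 at 24 h and 11.7 and 6.55 at 0 h, and in IM-9 9.24 and 9.29 at 24 h and 6.17 and 4.52 at 0 h. Under brightness as a covariate 0 members were called in U266, CALR standing at 0.30 (adjusted p = 0.201) and SEL1L at -0.29 (adjusted p = 0.181). In IM-9 HSP90B1 kept its call at -0.38 (adjusted p = 0.00117), HSPA5 was called at -0.29 (adjusted p = 0.0231), and DNAJB9 stood at 0.17 (adjusted p = 0.154). With arrays scaled to equal medians 0 members were called in either line, although not all differences were smaller. SEL1L and DNAJB9 then stood at -0.73 (adjusted p = 0.431) and -0.55 (adjusted p = 0.464) in U266, and DNAJB9 at 0.77 (adjusted p = 0.0689) and HSP90B1 at -0.26 (adjusted p = 0.306) in IM-9. Without U266 replicate 1 at 0 h or at 24 h 0 of the U266 calls were left, SEL1L standing at -0.47 (adjusted p = 0.119) and CALR at 0.47 (adjusted p = 0.175) without that of 0 h. Without replicate 2 at 0 h or at 24 h, 1 and 2 of the IM-9 calls were left.

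Within a line several members followed array brightness, as the plot of levels against brightness shows. Across 20 U266 and 19 IM-9 arrays, Pearson's r with log2 brightness was -0.69 and -0.83 for CALR, -0.77 and -0.64 for PDIA4, and 0.89 and 0.47 for DNAJB9. For HSPA5 it was 0.64 in U266 and -0.07 in IM-9, and for XBP1 -0.08 and 0.44. The arrays share groups and hours, so these are descriptions, and the part of brightness in the members' levels was not tested.

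**Figure D3:**
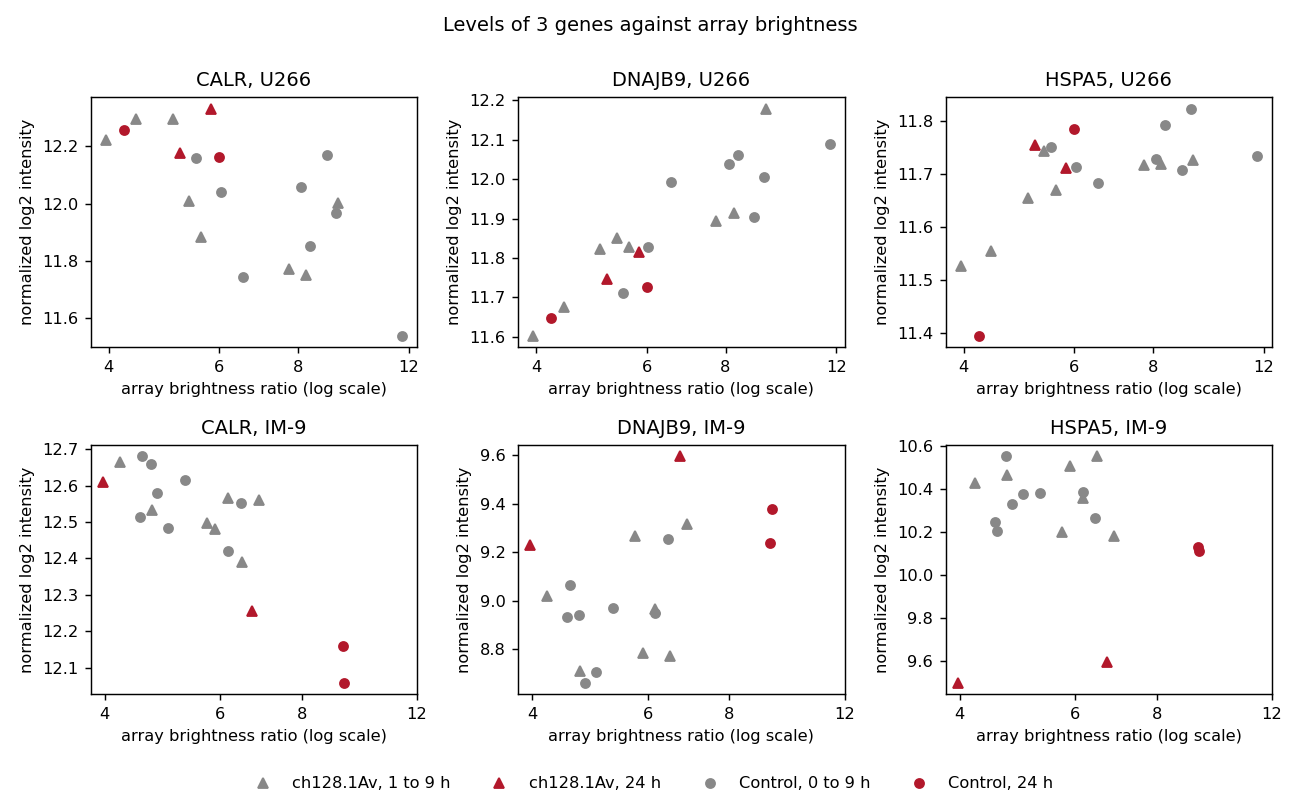
Normalized log2 intensity (vertical axes, each with its own range) of CALR, DNAJB9 and HSPA5 against the array brightness ratio (horizontal axes, log scale), U266 arrays in the top row and IM-9 arrays in the bottom row. Triangles are ch128.1Av and circles Control, with 24 h in red. In IM-9 both 24 h Control arrays are the brightest, at 9.24 and 9.29, and HSPA5 on both 24 h ch128.1Av arrays, at 9.59 and 9.50, lies below all other IM-9 arrays whatever their brightness.

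In IM-9 at 24 h, the BiP gene HSPA5 was lower with ch128.1Av while the chaperone gene HSP90B1 and the foldase gene PDIA4 were higher. Thus 2 of 9 members were called higher, where 6.15% of all genes tested were, and 1 lower, where 7.23% were, and 13.4% of all genes were called in either direction. The other 6 members did not pass. Counting the called ones, 6 of 9 members had an unadjusted limma p under 0.05, beside 3059 of 11538 genes. The median of the 9 was 0.10, beside 0.00 for all genes.

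HSPA5 was at 9.59 and 9.50 in IM-9 with ch128.1Av at 24 h, against 10.13 and 10.11 in Control. Both treated arrays were the lowest of all 19 IM-9 arrays, the others reaching down to 10.11. The difference was -0.58 (SE 0.0797, adjusted p = 3.32e-05), 1.49-fold lower. It held in 10 of 10 processing settings, from -1.02 to -0.46, and without each of the 4 arrays, from -0.62 to -0.53, and with brightness as a covariate it was -0.47 (adjusted p = 0.00100). The most negative value came with equal medians, which moved the median of all genes to -0.15. At 9 h HSPA5 in IM-9 had stood at 10.18 and 10.20 with ch128.1Av, against 10.27 and 10.20 in Control.

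HSP90B1 was at 14.09 and 14.31 in IM-9 with ch128.1Av at 24 h, against 13.74 and 13.78 in Control. The Control arrays at 24 h were the lowest of the 19 IM-9 arrays, while the treated arrays lay within or above the 13.96 to 14.25 seen at 0 to 9 h in Control. The difference was 0.44 (SE 0.0647, adjusted p = 7.16e-05), 1.36-fold. Scaled to equal medians it was 0.29 and not called (adjusted p = 0.233). HSP90B1 was lower on brighter IM-9 arrays (r = -0.72 over 19 arrays), and with ch128.1Av at 24 h brightness was 6.71 and 3.97, against 9.24 and 9.29 in Control; with brightness as a covariate the difference was 0.38 (adjusted p = 0.00202).

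PDIA4 was at 12.48 and 12.72 in IM-9 with ch128.1Av at 24 h, against 12.33 and 11.99 in Control. The difference was 0.44 (SE 0.139, adjusted p = 0.0366), 1.36-fold. This call was lost in 4 of 10 settings, with brightness as a covariate at 0.15 (adjusted p = 0.562) and with a replicate block at 0.44 (adjusted p = 0.116), and it was lost on leaving out replicate 2 of Control (0.27, adjusted p = 0.454) or of ch128.1Av (0.32, adjusted p = 0.420).

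CALR stood at 0.32 in the same comparison (adjusted p = 0.151), and at 0.50 without treated replicate 1, where it was called (adjusted p = 0.0397), as it was with IM-9 fitted alone (0.0463). XBP1 stood at 0.15 (adjusted p = 0.133), DNAJB9 at 0.10 (adjusted p = 0.563) and SDF2L1 at 0.03 (adjusted p = 0.878). DNAJB9 was at 0.31 and called with brightness as a covariate (adjusted p = 0.0140). SEL1L stood at -0.08 (adjusted p = 0.776) and SSR4 at -0.14 (adjusted p = 0.142), and without Control replicate 2 SSR4 was at -0.25 and called (adjusted p = 0.0362). The XBP1 level was 12.48 and 12.37 with ch128.1Av, against 12.23 and 12.32 in Control. Its 95% interval, 0.02 to 0.28, bounds a change that this number of arrays did not separate from 0 over all genes, and the DNAJB9 interval was -0.10 to 0.30. Scaled to equal medians, XBP1, DNAJB9 and SDF2L1 turned to -0.18, -0.31 and -0.16.

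**Figure D4:**
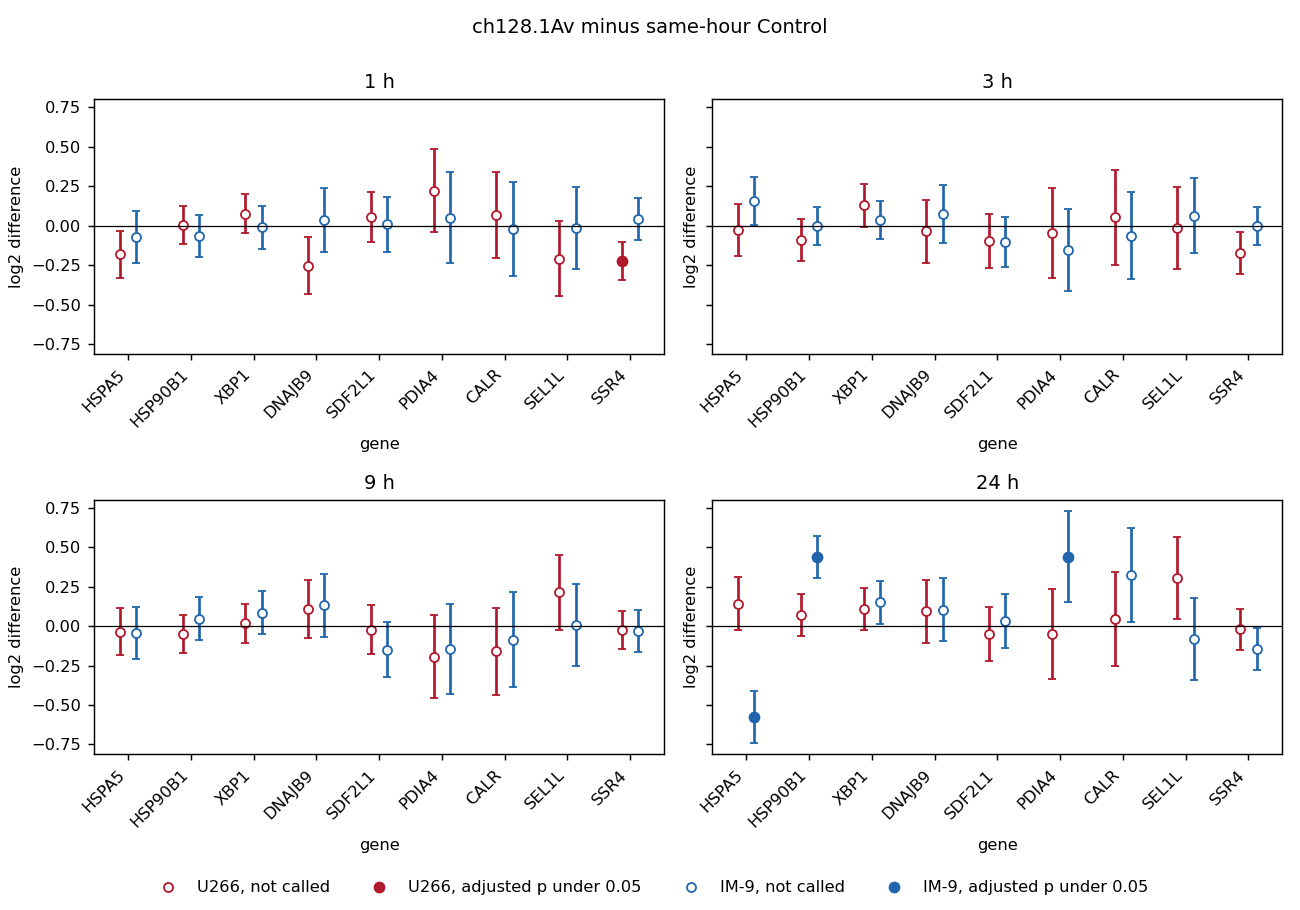
Log2 difference ch128.1Av minus same-hour Control (vertical axes) for each gene (horizontal axes) at 1, 3, 9 and 24 h, with 95% confidence intervals from the limma fit; U266 is red, IM-9 is blue and filled points have an adjusted p under 0.05. The filled points are SSR4 in U266 at 1 h, at -0.22, and HSPA5, HSP90B1 and PDIA4 in IM-9 at 24 h, at -0.58, 0.44 and 0.44.

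In U266 at 24 h limma called 0 of 9 members, where 0.0173% of all genes were called, and 1 member had an unadjusted p under 0.05. HSPA5 was at 11.71 and 11.75 with ch128.1Av, against 11.40 and 11.78 in Control, so the treated arrays lay between the Control arrays. HSP90B1 was at 14.19 and 14.11 with ch128.1Av, against 14.08 and 14.08 in Control, a difference of 0.07. The difference for HSPA5 was 0.14, and for SEL1L, the member with the largest value, 0.30. Without Control replicate 2, which leaves the lower Control array alone, HSPA5 at 0.34 (adjusted p = 0.00605) and SEL1L at 0.54 (adjusted p = 0.0231) were called.

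Whether the lines responded differently at 24 h was tested directly, as the treatment difference in U266 minus that in IM-9. It was called for HSPA5, at 0.72 (SE 0.113, adjusted p = 5.48e-04), and for HSP90B1, at -0.37 (SE 0.0914, adjusted p = 0.0205), 2 of 9 members where 4.87% of all genes were called. For PDIA4 it was -0.49 (SE 0.196, adjusted p = 0.146). The HSPA5 call was lost with equal medians (1.05, adjusted p = 0.279) and held in the other settings, the replicate block included (adjusted p = 0.0151). The HSP90B1 call was lost with the replicate block (adjusted p = 0.0631), with the deposited log2 values (0.0586), with brightness as a covariate (0.142), with equal medians (0.646) and without 1 of 4 arrays of the 8, for example without IM-9 treated replicate 2 (0.185).

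Before 24 h 1 member was called in 1 comparison, SSR4 in U266 at 1 h. In IM-9 at 1, 3 and 9 h limma called 0, 0 and 0 of 9 members, with 0, 1 and 0 at an unadjusted p under 0.05, where 0%, 0.0173% and 0.0867% of all genes were called. Their differences ran from -0.15 to 0.16 at 3 h and from -0.15 to 0.13 at 9 h. In U266 limma called 0 of 9 at 3 h and at 9 h, with 1 and 0 at an unadjusted p under 0.05, where 0.00867% and 0.0433% of all genes were called. At 1 h in U266 SSR4 was at 14.81, 14.81 and 14.77 with ch128.1Av, against 15.07 and 14.97 in Control. The difference was -0.22 (adjusted p = 0.0222), 1 of 9 members where 8.93% of all genes were called. In that comparison 3 of 9 had an unadjusted p under 0.05, and the differences ran from -0.25 for DNAJB9 (adjusted p = 0.0728) to 0.22 for PDIA4 (adjusted p = 0.268), with HSPA5 at -0.18 (adjusted p = 0.112). Without treated replicate 1 DNAJB9 was called too, at -0.32 (adjusted p = 0.0387), and without Control replicate 1 or treated replicate 2 limma called 0 of 9. Brightness was 5.62, 3.95 and 4.43 on the treated arrays and 8.89 and 9.21 on the Control arrays, and SSR4 rose with brightness in U266 (r = 0.64 over 20 arrays). With brightness as a covariate the difference was -0.13 (adjusted p = 0.346) and with equal medians 0.16 (adjusted p = 0.758). It was -0.21 with the replicate block (adjusted p = 0.0926) and -0.17 without Control replicate 1. With the 7 arrays of highest top signal as a block it was -0.18 (adjusted p = 0.580). All 3 treated arrays belonged to those 7 and both Control arrays did not, so array set and treatment cannot be told apart within this hour. The highest raw signals were 61365.4 to 62948.8 on the treated arrays, against 44879.7 and 47182.4 on the Control arrays. In the difference between the lines in the treatment effect limma called 0 of 9 members at 1, 3 and 9 h, with 2, 0 and 0 at an unadjusted p under 0.05, where 0.0867%, 0% and 0.0173% of all genes were called.

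The wider pathway was read from 6 lists. Of 20 genes of ER-associated degradation, the process SEL1L serves, 14 were called higher and 4 lower in U266 over the Control hours, where 42.1% of all genes were higher and 40.8% lower, with a median of 0.53. ERLEC1, a lectin that delivers glycoproteins to degradation, was 1.87 higher (log2), the ubiquitin ligase gene SYVN1, partner of SEL1L, 1.77, the channel gene DERL1 1.85 and the ubiquitin-conjugating enzyme gene UBE2J1 1.27. Their adjusted p ran from 3.00e-22 to 9.37e-21. Scaled to equal medians the list had 13 higher and 6 lower, and with brightness as a covariate 14 and 4.

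Chaperones and foldases outside the members went both ways: of 20 tested, 7 were called higher and 10 lower in U266, with a median of -0.08. With equal medians 5 were higher and 12 lower. Beside these and the next 2 lists, 42.1% of all genes were called higher and 40.8% lower. The disulfide isomerase genes TXNDC5 and P4HB were 2.76 and 0.70 higher in U266, while CRELD2 and MANF, small stress-induced ER proteins, stood at -1.24 and -0.78. Of 23 translocon, signal peptidase and oligosaccharyltransferase genes, 12 were higher and 7 lower, with a median of 0.10. The oligosaccharyltransferase genes RPN2 and STT3A differed by 0.97 and -1.08, the channel gene SEC61B by -1.21 and the signal peptidase gene SPCS1 by 0.54. Of 17 genes of transport between ER and Golgi 9 were higher and 6 lower, with a median of 0.18, KDELR1, the retrieval receptor of ER proteins, at 0.89 and the cargo receptor subunit gene MCFD2 at 0.87, against -0.71 for the GTPase gene ARF4 and -0.36 for the coat protein gene COPB2. With equal medians these last 2 lists had 6 higher and 7 lower, and 4 higher and 7 lower, so their balance depended on the scaling.

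Among 11 sensors and regulators of the response, 8 were called higher and 2 lower in U266, with a median of 0.12. Of all genes 42.1% were called higher and 40.8% lower. With equal medians 6 of the 11 were higher and 2 lower. EIF2AK3, the PERK kinase gene, was 1.90 higher (adjusted p = 4.56e-22), TMBIM6, a regulator of ER calcium, 0.51 higher, and RTCB, the ligase that joins the cut XBP1 mRNA, and WFS1, an ER membrane protein, stood at -1.16 and -0.97. All 8 tested genes of the PERK and ATF4 arm were called, 6 higher and 2 lower, where 82.9% of all genes were called. Their median was 0.63, led by DDIT3, the stress transcription factor CHOP, 2.41 higher (adjusted p = 1.04e-25), CEBPB at 1.30, the asparagine synthetase gene ASNS at 0.85 and CHAC1 at 0.38.

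**Figure D5:**
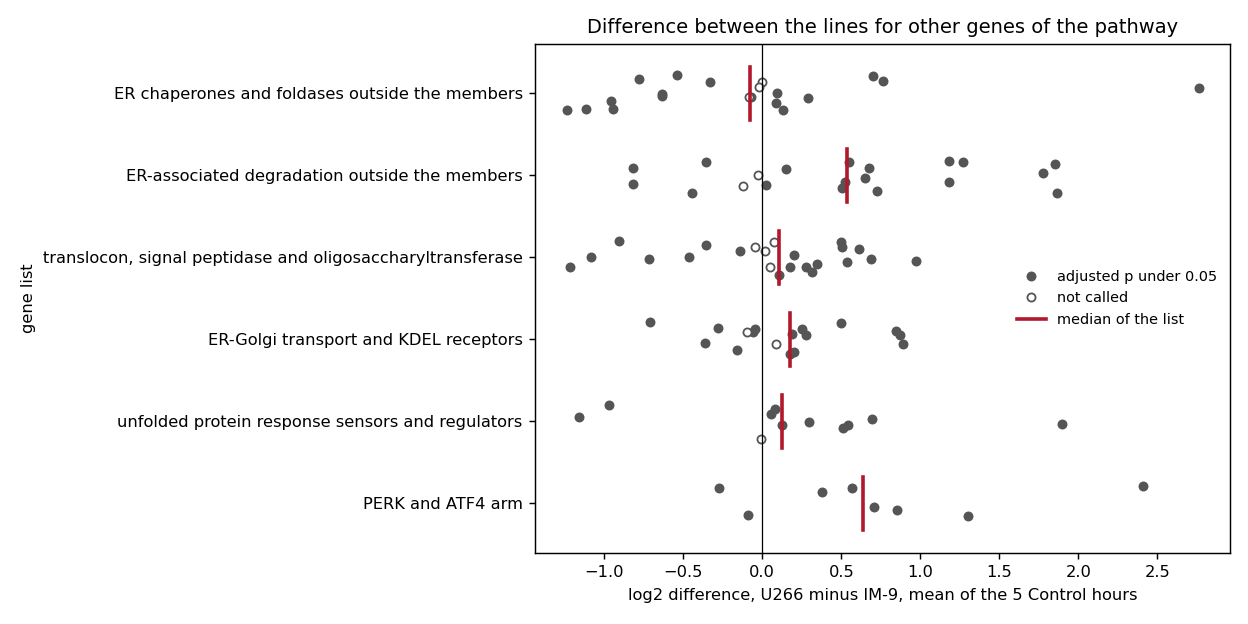
Log2 difference U266 minus IM-9 over the 5 Control hours (horizontal axis) for each tested gene of 6 lists that hold no member (rows). Filled points have an adjusted p under 0.05, red bars are medians, and vertical scatter within a row has no meaning. Degradation genes and the PERK and ATF4 arm lie mostly right of 0, with medians of 0.53 and 0.63, and chaperones and foldases lie on both sides, with a median of -0.08.

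In IM-9 with ch128.1Av at 24 h 20 of the 99 genes of these lists were called, where 13.4% of all genes were (6.15% higher and 7.23% lower), and 36 had an unadjusted p under 0.05. Of 23 translocon, signal peptidase and oligosaccharyltransferase genes 7 were called higher and 1 lower, with a median of 0.16, SEC63 at 0.48 and SEC61B at 0.58, while SEC62, a helper of the channel, stood at -0.62. Of 20 degradation genes 3 were higher and 3 lower, among them the ATPase gene VCP at 0.40, the signal peptide peptidase gene HM13 at 0.36 and UBE2J1 at -0.50. Of 20 chaperones and foldases, PPIB and P4HB were higher, at 0.18 and 0.15, and 0 lower, with the co-chaperone gene DNAJB11 at -0.14 (adjusted p = 0.0594). In the PERK and ATF4 arm ATF4, its transcription factor, and SESN2 were higher at 0.60 and 0.52, while DDIT3 stood at 0.23 (adjusted p = 0.0802). WFS1, at 0.48, was the call among 11 sensors and regulators, and LMAN1, a cargo receptor, at -0.16, that among 17 transport genes. The sensor gene ATF6 stood at -0.22 (adjusted p = 0.153), CREB3L2, a related transcription factor, at 0.36 (adjusted p = 0.0873), and the coat protein genes SEC13 and SEC23B at 0.31 (adjusted p = 0.0960) and 0.19 (adjusted p = 0.137). With brightness as a covariate the calls left in these 6 lists were SEC63 and 1 other translocon gene higher, and SEC62 and UBE2J1 lower. With equal medians the translocon list had 0 higher and 1 lower, VCP turned to -0.06 and P4HB to -0.12. Markers of the cells themselves moved too: 5 of 10 plasma cell markers were higher and 0 lower, IRF4 by 0.59, PRDM1 by 0.80 and TNFRSF17 by 0.34, and 4 of 8 B lymphoblast markers were higher and 0 lower. FCER2 stood at 0.28, EBI3 at 0.22 and CIITA at 0.36, and of the markers of other cell types NKG7 at -0.16 (adjusted p = 0.00187), PECAM1 at 0.05 and HBB at -0.04. With brightness as a covariate 4 plasma cell and 0 B lymphoblast markers were higher, and with equal medians 0 and 0, and the part of these markers in the members' changes was not tested. In U266 at 24 h limma called 0 of the 99 genes of these 6 lists, with 3 at an unadjusted p under 0.05. The genes of smallest unadjusted p in each list were CANX at 0.21, DNAJC10 at 0.08 and ERO1A at 0.28 among chaperones and foldases, and UBE2J1 at 0.22, EDEM3 at -0.04 and HM13 at -0.14 in degradation. SEC63, SSR3 and STT3A stood at 0.17, 0.10 and 0.11, SAR1A, SAR1B and ARF4 at 0.22, 0.24 and -0.08, and MBTPS2, MBTPS1 and EIF2AK3 at 0.06, 0.20 and 0.12. In the PERK and ATF4 arm CHAC1 stood at 0.15, PPP1R15A at -0.16 and DDIT3 at -0.14. Of the markers, IRF4, SLAMF7 and SDC1 stood at 0.23, 0.19 and 0.11, CIITA, CD22 and EBI3 at -0.04, -0.04 and 0.01, and HBB, PECAM1 and COL1A1 at 0.06, 0.04 and -0.02.

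The genes most like HSPA5 over the 18 group means, after the mean of each line was taken off, were FOLR3 (Pearson's r = 0.940), UBE2C (0.935), EIF4A3 (0.932), ING5 (0.931) and H3C3 (0.931). Those most like XBP1 were RAC2 (0.929), SDHAF4 (0.911), GSAP (0.895), MAP4K1 (0.889) and BET1 (0.889). Among the members HSPA5 and XBP1 ran against each other on this measure (r = -0.82). Their group means moved more in IM-9, HSPA5 between 9.54 and 10.51 and XBP1 between 11.87 and 12.43. The lowest HSPA5 mean and the highest XBP1 mean of IM-9 were both in ch128.1Av at 24 h, a group of 2 arrays. The next were 10.12 for HSPA5 and 12.28 for XBP1, both in IM-9 Control at 24 h. How much that treated group sets the likeness was not tested. In U266 HSPA5 lay between 11.58 and 11.77 and XBP1 between 13.38 and 13.65. HSP90B1 ran with CALR (0.75), PDIA4 (0.74) and SDF2L1 (0.72), and DNAJB9 ran with XBP1 (0.70). Of 10398 named genes CALR was at rank 76 in likeness to HSP90B1, and XBP1 at rank 284 in likeness to DNAJB9. These correlations cover 18 groups that share arrays with the comparisons above and are descriptions only. Levels of HSP90B1, CALR, PDIA4 and SDF2L1 all fell with array brightness in both lines. Pearson's r with log2 brightness in U266 and IM-9 was -0.42 and -0.72 for HSP90B1, and -0.69 and -0.83 for CALR. It was -0.77 and -0.64 for PDIA4 and -0.58 and -0.59 for SDF2L1. For DNAJB9 it was 0.89 and 0.47, and for XBP1 -0.08 and 0.44. The part of brightness in the likeness of these genes was not tested.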

How the data were processed

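Per the labels, biotin-labelled targets were made from total RNA and hybridised to Illumina BeadChips, and BeadStudio is named in the submitters' processing notes. The deposited scanner table gives the mean intensity per array of 20589 probes, on a linear scale and not normalized, as checked on its values, with a deposited detection score, a fraction from 0 to 1, from which the detection p was taken as 1 minus the score. A second deposited table holds log2 values that the authors had already normalized between arrays; how is not given in the sources used here, and it served as an alternative. Per-sample values in 78 other columns were left out. No genome positions come from the arrays, and an aligner or build does not apply to them.

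With neqc (limma 3.58.1, R 4.3.3) the background was fitted from detection p and subtracted, 16 was added as offset, and arrays were quantile-normalized and logged to base 2. A probe was kept where 2 or more arrays had a detection p under 0.01 (12080 probes), and the probe with the highest mean was taken per gene, which left 11538 for testing, of which 1139 were probes with no gene name. One mean was fitted for each of 18 groups (21 residual degrees of freedom), and limma's moderated two-sided test was adjusted by Benjamini-Hochberg over all 11538 genes in each of 21 comparisons. The line comparison weights the 5 Control hours equally. The depth of an array is not a count; the number of arrays limits the precision.

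The members and gene lists were chosen with earlier results of these data known. All members were named, and from each list the 4 genes with the smallest unadjusted p between the lines and the 3 with the smallest in each line at 24 h. The comparison of the lines in the Control change from 0 to 24 h, and the alternatives for the line difference at single hours, were added after the data were seen. The lists are ER chaperones and foldases; ER-associated degradation; translocon, signal peptidase and oligosaccharyltransferase; ER-Golgi transport; sensors and regulators; the PERK and ATF4 arm; and markers of plasma cells, B lymphoblasts and other cell types. The alternatives were equal array medians, the deposited log2 table, an offset of 50, no or a stricter detection filter, every kept probe, a fit of the line or the Control arrays alone, a replicate block, array brightness as a covariate, the arrays of highest top signal as a block, and each array left out. Those of highest top signal, above 60000, were all U266. They were the arrays with ch128.1Av at 1 h, its replicate 2 at 3 h and replicate 1 at 9 h, and Control at 9 h. The fit was also run on simulated data with independent noise for each gene and array. Shifts shared by the genes of an array, such as brightness, were not simulated, so that run does not cover them. Promoter sequences are from RefSeq, GRCh38.p14. Nothing in the labels says that replicate numbers pair arrays.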

Additional observations from a re-analysis of the deposited data

Results flagged for a closer look

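Comparisons of the lines tested whether a difference was itself different between the lines, and 9 values passed. The treatment difference at 24 h in U266 minus that in IM-9 was 0.72 for HSPA5 (SE 0.113, adjusted p = 5.48e-04 by limma) and -0.37 for HSP90B1 (SE 0.0914, adjusted p = 0.0205). For HSPA5 the treated arrays were lower than Control in IM-9 and lay between the Control arrays in U266. For HSP90B1 the treated arrays were higher than Control in both lines, by 0.07 in U266 and 0.44 in IM-9.

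The change in Control cells from 0 to 24 h, in U266 minus that in IM-9, was compared after the data were seen. It was called for 7 of 9 members, where 22.7% of all genes were called. Positive values were 0.93 for CALR (SE 0.205, adjusted p = 0.00281), 0.70 for HSP90B1 (SE 0.0914, adjusted p = 1.98e-05) and 0.53 for SDF2L1 (SE 0.117, adjusted p = 0.00299). Negative values were -0.72 for DNAJB9 (SE 0.137, adjusted p = 8.84e-04), -0.57 for SEL1L (SE 0.178, adjusted p = 0.0239), -0.29 for XBP1 (SE 0.0916, adjusted p = 0.0252) and -0.27 for SSR4 (SE 0.0901, adjusted p = 0.0353). HSP90B1 moved in opposite directions in the lines, by 0.27 in U266 and -0.44 in IM-9, and DNAJB9 by -0.35 in U266 and 0.36 in IM-9. Array brightness also changed in opposite directions, being 4.23 and 5.99 at 24 h and 11.7 and 6.55 at 0 h in U266, and 9.24 and 9.29 at 24 h and 6.17 and 4.52 at 0 h in IM-9. With brightness as a covariate 1 of the 7 calls was left, HSP90B1 at 0.59 (adjusted p = 0.00381), and with equal medians 1, DNAJB9 at -1.32 (adjusted p = 0.0367). The part of brightness in the other 6 was not tested further.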

How the results depend on the processing

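Of 69 called differences of members, 44 held under every processing setting and without each array in turn: 8 of the 9 line differences over the Control hours, HSPA5 in IM-9 at 24 h, and the line differences at single hours apart from 3. Those 3 were PDIA4 at 1 h, lost in 4 settings (with brightness -0.04, adjusted p = 0.751) and 3 omissions, HSP90B1 at 9 h, lost with the top-signal block (-0.19, adjusted p = 0.0822) and in 2 omissions, and HSP90B1 at 24 h, lost with equal medians (0.03, adjusted p = 0.892). Scaling arrays to equal medians left 1 member called in IM-9 at 24 h (3 as reported), 0 in U266 at 1 h (1), 0 in the difference of treatment effects at 24 h (2), 0 in the Control change of IM-9 (4) and of U266 (5), and 1 in the difference of those changes (7). It turned XBP1, DNAJB9 and SDF2L1 in IM-9 at 24 h to -0.18, -0.31 and -0.16, SSR4 in U266 at 1 h to 0.16, and HSP90B1, DNAJB9 and CALR in U266 at 24 h to -0.033, -0.016 and -0.058. Its calls over all genes were 61 higher and 687 lower in IM-9 at 24 h (710 and 834 as reported), 56 and 4 in U266 at 1 h (518 and 512), 10 and 2 in the difference of treatment effects (287 and 275), 1070 and 31 and 4 and 2 in the Control changes of IM-9 and U266 (1034 and 832, 648 and 811) 84 and 841 in their difference (1147 and 1468), and 1895 and 4387 at 9 h and 2305 and 4419 at 24 h between the lines (3881 and 3781, 4051 and 3870), with medians of all genes at -0.15 in IM-9 at 24 h and 0.13 and -0.23 in the IM-9 Control change and the difference, and -0.11 and -0.09 between the lines at 9 and 24 h. Brightness as a covariate left 0 members in U266 at 1 h, 1 in the difference of treatment effects, 2 and 0 in the Control changes of IM-9 and U266 and 1 in their difference, and turned SDF2L1 and SEL1L in IM-9 at 24 h to -0.11 and 0.14. A replicate block left 0 in U266 at 1 h, 1 in the difference of treatment effects and 3 in the U266 Control change; replicate numbers are not said to pair arrays, and same-numbered arrays correlated at -0.70 to 0.29 in their deviations. The deposited log2 table left 1 in the difference of treatment effects, the top-signal block 0 in U266 at 1 h, and a fit of U266 alone 2 in its Control change. Over all genes, IM-9 at 24 h had 1544 calls as reported, 748 with equal medians, 816 with the block and 631 with brightness; U266 at 1 h had 1030, against 60, 358 and 41 in those settings, 205 fitted alone and 2 with the top-signal block. The difference of treatment effects had 562, against 300 with the deposited table, 155 with the block and 171 with brightness; the U266 Control change 1459, against 694 with the block, 322 with brightness and 680 fitted alone; and the difference of Control changes 2615, against 1574 with the block and 629 with brightness.

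Leaving out 1 array at a time gave 0 to 2 members called in U266 at 1 h, 0 to 2 in U266 at 24 h, 1 to 3 in the difference of treatment effects, 1 to 4 and 0 to 5 in the Control changes of IM-9 and U266, and 4 to 8 in their difference. It moved DNAJB9 from -0.080 to 0.29 and SDF2L1 from -0.090 to 0.15 in IM-9 at 24 h, and HSPA5 from -0.052 to 0.34, CALR from -0.032 to 0.12 and SSR4 from -0.10 to 0.056 in U266 at 24 h. The cause of these changes was not tested. With 2 arrays in most groups, small differences could not be told from 0, and SEL1L in IM-9 lay close to the detection limit.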
